A study of Homo sapiens with 36 samples.

Results

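UDP-glucuronosyltransferases (UGTs) are the enzymes that attach a sugar from a nucleotide donor to drugs, hormones, bilirubin and lipids. The 9 genes UGT1A1, UGT1A6, UGT1A8, UGT1A10, UGT2A3, UGT2B7, UGT2B15, UGT2B17 and UGT8 were taken by symbol from the 60591 rows of the mRNA count table. Their mRNA was measured in 2 human colorectal adenocarcinoma lines, Caco-2 and HT-29, in 6 groups of 3 libraries each. Caco-2 cells had been cultured for 21 days to differentiate into enterocyte-like cells (dCaco-2), whereas no differentiation step was given for HT-29, so line and culture state cannot be told apart. Cells of each line received either cobalt (II) chloride (CoCl2, 300 µM), an oxyquinoline derivative (OD, 5 µM) or neither, each for 24 h. Both agents are used to stabilise hypoxia-inducible factor (HIF) without lowering oxygen. OD and control cells received 0.5 µl DMSO per ml of medium. The CoCl2 stock was made in water and the sources differ on whether DMSO was also added to it, so the comparison of CoCl2 with control may include a difference in solvent. Each line is a single tumour-derived line, and differences between the lines are differences between these cells only.

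In the gut wall and the liver, UGTs of families 1 and 2 transfer glucuronic acid from UDP-glucuronic acid to a substrate inside the endoplasmic reticulum, and the conjugate is then pumped out of the cell. All UGT1A enzymes come from 1 locus: each has its own first exon and promoter, and the remaining exons are common to all. UGT2A and UGT2B enzymes come from separate genes in a cluster. UGT8 stands apart in the family, since it transfers galactose to ceramide to make galactosylceramide, a membrane lipid.

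The structure of the UGT1A locus bears on every UGT1A value below, because reads in the common exons cannot tell these genes apart. The next lines show, for the 4 UGT1A members, the last 30 bases of the first exon in lower case, joined to the first 30 bases of the common second exon in capitals (GRCh38, plus strand, exon 2 part chr2:233767034-233767063). The first exons end at chr2:233761122-233761151 for UGT1A1, chr2:233693836-233693865 for UGT1A6, chr2:233618533-233618562 for UGT1A8 and chr2:233637348-233637377 for UGT1A10.
UGT1A1: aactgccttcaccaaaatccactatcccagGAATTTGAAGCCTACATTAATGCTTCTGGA
UGT1A6: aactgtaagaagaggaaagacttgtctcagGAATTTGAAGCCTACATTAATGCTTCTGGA
UGT1A8: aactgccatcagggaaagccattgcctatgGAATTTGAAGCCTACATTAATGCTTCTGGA
UGT1A10: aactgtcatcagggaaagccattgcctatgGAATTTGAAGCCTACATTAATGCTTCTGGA
The capitals were identical in all 4 genes. Of all 75-base windows of the main transcript, the length of a read here, 61.6% were shared with another gene for UGT1A1, 59.3% for UGT1A6, 66.6% for UGT1A8 and 64.6% for UGT1A10. How reads that match several genes were counted is not given in the sources used here, so single UGT1A values are uncertain and sums over the UGT1A genes are given beside them. A further 20.6% of the exonic bases of UGT1A6 lie opposite antisense genes, and whether counting used strand is not stated.

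UGT2B15 and UGT2B17 are close copies, and their reads can be split less surely than those of UGT2B7. The first 75 coding bases of the 3 genes are shown with capitals where a base differs from UGT2B17 (GRCh38, chr4:68568410-68568484 on the minus strand for UGT2B17, chr4:68670544-68670618 on the minus strand for UGT2B15 and chr4:69096521-69096595 on the plus strand for UGT2B7).
UGT2B17: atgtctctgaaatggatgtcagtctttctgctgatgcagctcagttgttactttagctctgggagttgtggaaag
UGT2B15: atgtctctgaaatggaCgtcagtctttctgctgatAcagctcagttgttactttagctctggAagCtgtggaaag
UGT2B7: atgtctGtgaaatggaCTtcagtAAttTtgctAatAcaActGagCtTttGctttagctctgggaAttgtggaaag
UGT2B15 differed from UGT2B17 at 4 of these 75 bases and UGT2B7 at 14. Over the whole coding sequence of 1590 bases, UGT2B15 and UGT2B17 differed at 55 bases, an identity of 96.5%. The share of 75-base windows common to another gene was 17.9% for UGT2B15, 15.3% for UGT2B17, 2.3% for UGT2B7, 0.4% for UGT2A3 and 0% for UGT8.

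The 18 mRNA libraries held between 12925719 and 22332639 counts in genes. Intestinal epithelial markers were present in both lines, with a summed level of 4640 to 7970 CPM (counts relative to library size, scaled within each line, so that levels of different lines are on separate scalings) over 8 genes in dCaco-2 and 5110 to 7070 in HT-29, although CDX1 had at most 3 counts per library in dCaco-2. The summed level of 8 enterocyte markers was 991 to 1470 CPM in dCaco-2 and 189 to 265 in HT-29. In HT-29, SI, ANPEP, DPP4 and SLC5A1 passed the filter on low counts, and ALPI, LCT and APOA4 had at most 3 counts per library. The summed level of 6 hepatocyte markers was 11300 to 15800 CPM in dCaco-2 and 294 to 606 CPM in HT-29. The summed level of 5 fibroblast markers was 19.2 to 31 CPM in dCaco-2, where 3 passed the filter on low counts, and 3.13 to 7.86 in HT-29, where 2 passed. That of 5 immune cell markers was 7.04 to 10.8 CPM in dCaco-2, where 2 passed, and 1.12 to 2.98 in HT-29, where 1 passed. Their defining markers DCN, COL1A2 and PTPRC had at most 3 counts per library in each group. In such bulk libraries, fewer cells of a type and less RNA per cell cannot be told apart.

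The untreated lines differed in 8 of the 9 genes, and no difference was called for UGT8. Here and below, a gene was called at a false discovery rate (FDR) under 0.05 in edgeR's quasi-likelihood test together with a log2 fold change beyond 1 in either direction, and each ± is an SE of a log2 fold change or an SD of a level (n = 3). The 8 genes were called between control dCaco-2 and control HT-29, 4 in each direction, while 45.8% of 17921 genes tested were called (24.2% higher in dCaco-2 and 21.6% lower). The median log2 difference was -0.02 over the members and 0.00 over all genes tested. UGT1A10, a UGT1A gene of the gut rather than the liver, had 42.9, 39.2 and 45.0 CPM in the 3 control HT-29 libraries, whereas the dCaco-2 control libraries held only 4, 2 and 1 counts. The log2 difference was -8.16 ± 0.19 (FDR 2.98e-28). UGT1A8 (-6.01 ± 0.38), UGT1A1 (-5.25 ± 0.26) and UGT1A6 (-1.55 ± 0.22) were also lower in dCaco-2. The 4 UGT2 members went the other way.

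UGT2A3, which glucuronidates bile acids, was the leading UGT2 member in dCaco-2, with 150, 145 and 154 CPM in control libraries against 2.06, 2.18 and 3.26 in HT-29, a log2 difference of 5.75 ± 0.11 (FDR 8.68e-31). UGT2B17 and UGT2B15, which conjugate androgens, were higher in dCaco-2 by 8.54 ± 0.34 and 3.29 ± 0.20 on the log2 scale, and UGT2B7, which conjugates morphine and many other drugs, by 2.64 ± 0.19. UGT2B17 had 371 to 485 counts per control library in dCaco-2 and 0 to 3 in HT-29. The summed hepatocyte and enterocyte markers moved with this line difference in the same direction, and their part in it was not tested. Of the 8 enterocyte markers, 7 were called higher in dCaco-2 and 1 lower, beside 24.2% and 21.6% of all genes. UGT8 had nearly the same level in both lines, with a log2 difference of -0.02 ± 0.06 (FDR 0.75).

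Per length of gene, as RPKM, which divides CPM by kilobases of gene length, on the gene lengths behind the deposited values, UGT2A3 led in control dCaco-2 with 48.6 ± 1.46, ahead of UGT8 (22.6 ± 0.746), UGT2B17 (14 ± 3.15), UGT2B15 (6.92 ± 1.10), UGT2B7 (4.56 ± 0.256) and UGT1A6 (0.243 ± 0.0646). Each of these neighbours was separate in its 3 libraries, whereas UGT1A10, UGT1A1 and UGT1A8 overlapped at levels under 0.05 RPKM on average. In control HT-29, UGT8 (21.6 ± 0.401) came before UGT1A10 (13.6 ± 0.953), UGT1A8 (2.38 ± 0.542) and UGT1A1 (1.64 ± 0.0912). UGT2A3, UGT2B15, UGT1A6 and UGT2B7 then overlapped between 0.676 and 0.813 RPKM on average, and UGT2B17 was last at 0.0268 RPKM. With CoCl2 and with OD, UGT1A10 was above UGT8 in HT-29, at 40.9 ± 1.37 against 12.6 ± 0.416 and at 26.4 ± 0.240 against 18.1 ± 0.441 RPKM. The lengths used for the UGT1A genes include the common exons, so their per-length levels depend on where the counted reads lay.

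**Figure D1:**
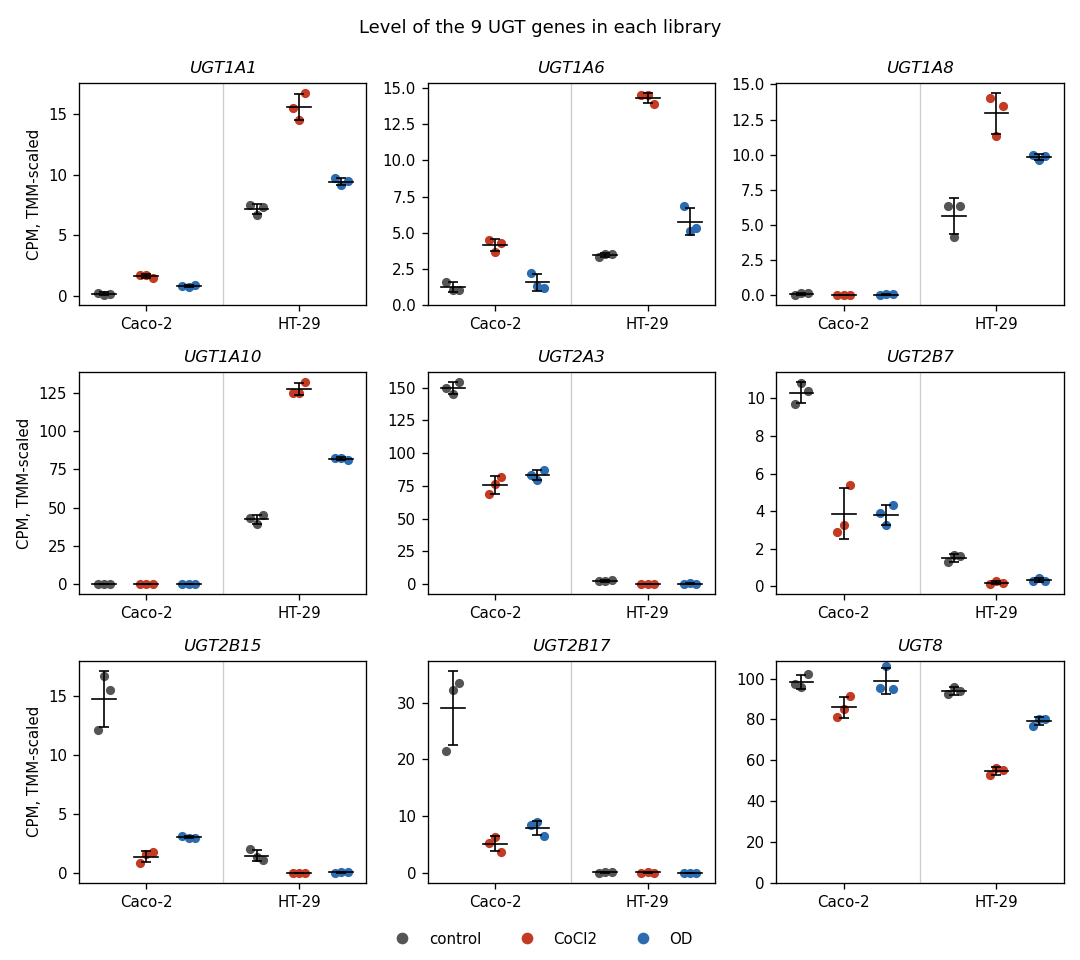
Level of each of the 9 UGT genes in every mRNA library, as CPM after TMM (trimmed mean of M-values) scaling, with a vertical axis of its own for each gene. Points are libraries, the horizontal bar is the mean of 3 and the whisker is the SD. UGT1A10 is near 0 in dCaco-2 and reaches 132 CPM with CoCl2 in HT-29, while UGT2A3 in dCaco-2 is at 150 CPM in control, 75.7 in CoCl2 and 83.2 in OD libraries.

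In dCaco-2, the 2 UGT1A members that could be tested rose with CoCl2 and the 3 UGT2B members fell. Of the 7 members tested, 5 were called, while 23.4% of the 16034 genes tested were called in this comparison (9.13% higher and 14.2% lower). The median log2 fold change was -0.98 over the tested members and -0.03 over all genes. UGT1A8 and UGT1A10 had 0 to 4 counts per library in dCaco-2 and were not tested there.

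UGT1A1, the enzyme that conjugates bilirubin, had 5, 1 and 3 counts in the control libraries, 21, 24 and 27 with CoCl2 and 12, 13 and 13 with OD. These are 0.29, 0.0669 and 0.207 CPM in control, 1.75, 1.74 and 1.46 CPM with CoCl2 and 0.806, 0.779 and 0.916 CPM with OD. The 3 groups did not overlap, and CoCl2 was the highest. UGT1A1 rose by 3.03 ± 0.47 on the log2 scale in CoCl2 libraries (FDR 4.53e-06) and by 2.06 ± 0.52 in OD libraries (FDR 0.00189), and the few control counts limit how well the size of either is known.

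UGT1A6, which conjugates small phenols, had 1.63, 1.07 and 1.04 CPM in control dCaco-2, 4.49, 3.70 and 4.32 with CoCl2 and 2.22, 1.32 and 1.20 with OD. The CoCl2 libraries were above all others, and the OD libraries overlapped the control libraries. Accordingly, UGT1A6 rose by 1.72 ± 0.28 with CoCl2 on the log2 scale (FDR 7.55e-06) and differed by 0.32 ± 0.31 with OD (FDR 0.409). Summed over all 9 UGT1A genes, dCaco-2 had 1.84 ± 0.472 CPM in control, 6.17 ± 0.543 with CoCl2 and 2.75 ± 0.491 with OD.

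UGT2B15 had 12.1, 16.7 and 15.5 CPM in control dCaco-2 libraries, 0.832, 1.60 and 1.73 with CoCl2 and 3.16, 3.00 and 2.96 with OD. The 3 groups were separate, with CoCl2 the lowest. UGT2B17 had 21.5, 32.2 and 33.5 CPM in control, 5.32, 6.31 and 3.67 with CoCl2 and 8.46, 8.87 and 6.55 with OD, and its 3 groups did not overlap either. For UGT2B17 the CoCl2 log2 fold change was -2.53 ± 0.18 (FDR 1.58e-11) and that of OD was -1.86 ± 0.17 (FDR 2.99e-09). For UGT2B15 the same values were -3.36 ± 0.21 and -2.28 ± 0.18.

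UGT2B7 had 9.70, 10.8 and 10.4 CPM in control dCaco-2, 2.91, 3.26 and 5.40 with CoCl2 and 3.90, 3.24 and 4.30 with OD. Control libraries were above the rest, and the libraries of both agents overlapped. On the log2 scale, UGT2B7 changed by -1.38 ± 0.19 under CoCl2 (FDR 1.02e-06) and by -1.44 ± 0.19 under OD (FDR 1.12e-06). UGT2A3 had 68.8, 76.2 and 82.0 CPM with CoCl2 and 83.0, 79.6 and 86.9 under OD, all well under the 145 to 154 CPM of control. Its log2 fold changes of -0.98 ± 0.08 (FDR 9.37e-11) and -0.85 ± 0.08 (FDR 2.99e-09) were far from 0 for their error but inside the fold limit, so UGT2A3 was not called with either agent. Without CoCl2 replicate 3 (-1.04) or without control replicate 2 (-1.01), UGT2A3 passed the limit with CoCl2.

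With OD in dCaco-2, 4 of the 7 members tested were called, UGT1A1 as higher and the 3 UGT2B members as lower, while 11.7% of genes tested were called (4.43% higher and 7.27% lower). The median log2 fold change was -0.85 over the tested members and -0.02 over all genes. Both comparisons share the same 3 control libraries. Summed over all 7 UGT2B genes, dCaco-2 had 74.3 ± 10.1 CPM in control, 15.1 ± 0.948 with CoCl2 and 22.5 ± 1.84 with OD. The summed level of 8 enterocyte markers was 1110 to 1220 CPM in control, 991 to 1090 under CoCl2 and 1390 to 1470 under OD. Its members moved apart: with CoCl2 the brush border disaccharidases LCT (-1.47 ± 0.17) and SI (-1.33 ± 0.11) and the fatty acid binding protein FABP2 (-1.27 ± 0.50) were called lower and the apolipoprotein APOA4 higher (2.22 ± 0.16), and with OD 2 were called higher, APOA4 among them (1.31 ± 0.16), and none lower. The summed hepatocyte markers were 14100 to 15800 CPM in control, 14600 to 14900 under CoCl2 and 11300 to 12700 under OD. Of these 6 genes, 1 was called lower with each agent, beside 14.2% and 7.27% of all genes, and none higher. They were FGB with CoCl2 (-1.05 ± 0.09) and TTR with OD (-1.02 ± 0.08). The part of either list in the UGT2B values was not tested.

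**Figure D2:**
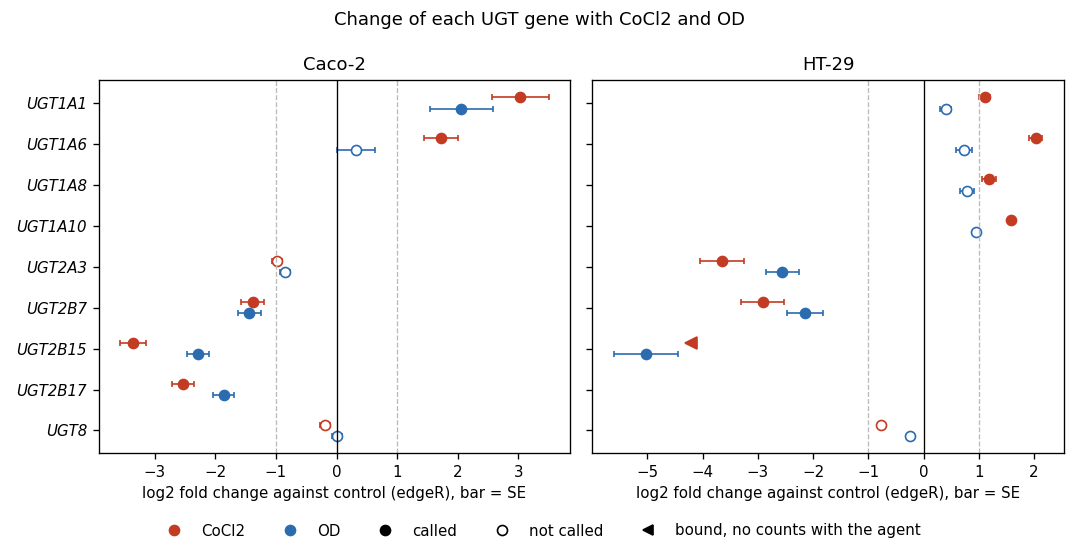
Log2 fold change of each UGT gene against control (horizontal axis) with CoCl2 and with OD, in dCaco-2 (labelled Caco-2) and HT-29, with the SE as bars. Filled points were called, open points were not, dashed lines mark the fold limit, genes without a point were not tested, and the triangle is the bound for UGT2B15, which had no counts with CoCl2 in HT-29. UGT1A points lie to the right of 0 and UGT2 points to the left in both lines.

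In HT-29, the same split between UGT1A and UGT2 genes was seen from other starting levels. With CoCl2, 7 of the 8 members tested were called, 4 higher and 3 lower, while 41.3% of the 15812 genes tested were called (17.4% higher and 23.9% lower). The median log2 fold change was 0.17 over the tested members and -0.03 over all genes. UGT2B17 had 0 to 3 counts per HT-29 library and was not tested.

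UGT1A10 had 42.9, 39.2 and 45.0 CPM in control HT-29, 125, 125 and 132 with CoCl2 and 82.5, 82.3 and 81.1 with OD. The 3 groups were widely separate, with OD between control and CoCl2. UGT1A10 rose by 1.58 ± 0.05 with CoCl2 (FDR 7.15e-20), and its log2 fold change under OD, 0.95 ± 0.05 (FDR 2.1e-14), was just inside the fold limit. UGT1A8, the closest copy of UGT1A10, had 6.38, 4.15 and 6.37 CPM in control, 14, 11.3 and 13.5 with CoCl2 and 10.0, 9.59 and 9.94 with OD, again without overlap. It changed by 1.18 ± 0.13 with CoCl2 (FDR 5.24e-09) and by 0.79 ± 0.13 with OD, which was inside the limit.

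UGT1A6 had 3.35, 3.55 and 3.56 CPM in control HT-29, 14.5, 14.5 and 13.9 with CoCl2 and 6.87, 5.11 and 5.37 with OD. No libraries of different groups overlapped, and CoCl2 stood well above OD. The log2 fold change was 2.03 ± 0.12 with CoCl2 (FDR 2.32e-14), and with OD it was 0.73 ± 0.14 (FDR 3.98e-05). UGT1A1 had 7.47, 6.71 and 7.31 CPM in control, 15.5, 14.5 and 16.7 with CoCl2 and 9.71, 9.12 and 9.46 with OD, in the same order. Its log2 fold change was 1.11 ± 0.10 in CoCl2 libraries (FDR 8.04e-11) and 0.40 ± 0.10 in OD libraries (FDR 0.00137).

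Summed over the UGT1A genes, HT-29 had 59.4 ± 4.62 CPM in control, 172 ± 5.61 with CoCl2 and 109 ± 1.91 with OD. UGT1A10 made up 71.4% ± 0.954 of these counts in control, 74.2% ± 0.992 with CoCl2 and 75.3% ± 1.03 with OD. The CoCl2 libraries of HT-29 had low TMM factors, and with scaling by library size alone the median of all genes shifted by -0.63 on the log2 scale. Under that scaling UGT1A10 (0.95), UGT1A8 (0.55) and UGT1A1 (0.48) were no longer called with CoCl2 in HT-29, still with values above 0, and UGT1A6 stayed called.

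UGT2A3 had 32, 40 and 87 counts in the control HT-29 libraries, 4, 1 and 3 with CoCl2 and 8, 9 and 7 with OD. In CPM these are 2.06, 2.18 and 3.26, then 0.298, 0.0691 and 0.247, then 0.413, 0.523 and 0.372, with no overlap between groups. UGT2A3 fell by 3.65 ± 0.39 under CoCl2 (FDR 2.62e-09) and by 2.56 ± 0.30 under OD (FDR 2.54e-08) on the log2 scale. UGT2B7 had 20, 31 and 43 counts in control, 2, 4 and 2 with CoCl2 and 6, 8 and 5 with OD, so control was separate from both agents. It fell by 2.91 ± 0.39 under CoCl2 (FDR 1.76e-07) and by 2.15 ± 0.32 under OD (FDR 1.13e-06).

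UGT2B15 had 31, 25 and 28 counts in the control HT-29 libraries, no count with CoCl2 and 0, 1 and 1 counts with OD. It was called with both agents (FDR 3.34e-08 and 3.58e-08). A total of 0 counts over the 3 CoCl2 libraries allows up to 3 counts, or 0.0749 CPM. Against the observed control level, UGT2B15 was then at least 18.5-fold lower with CoCl2. This bound leaves out the error of the control count. With OD, 2 counts against 84 gave a control level 38.4 times as high, with a 95% exact interval of 10.3 to 323 that covers counting error only. Summed over the UGT2B genes, HT-29 had 3.89 ± 0.0839 CPM in control, 0.368 ± 0.168 with CoCl2 and 0.654 ± 0.0945 with OD.

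With OD in HT-29, 3 of the 8 members tested were called, all lower, while 17.1% of genes tested were called (9.5% higher and 7.57% lower). The 4 UGT1A members and UGT8 had an FDR under 0.05 with a log2 fold change inside the limit. The median log2 fold change was 0.07 over the tested members and 0.01 over all genes.

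**Figure D3:**
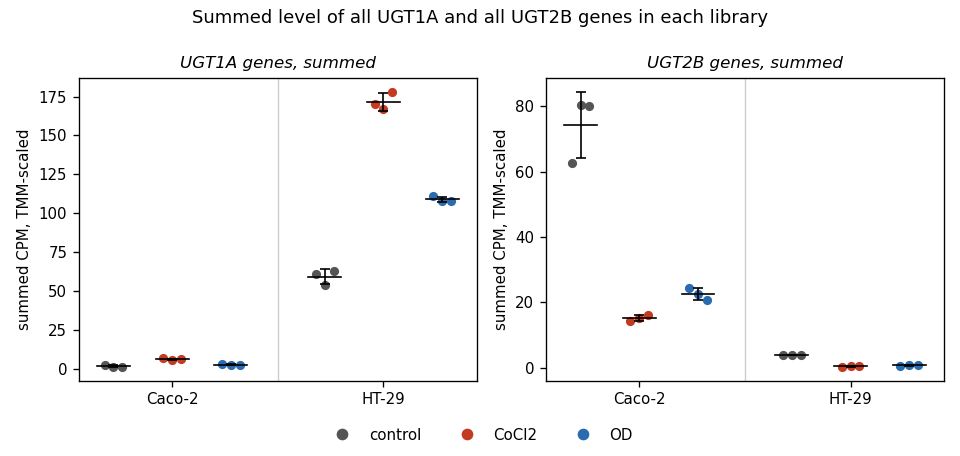
CPM summed over all 9 UGT1A genes (left) and all 7 UGT2B genes (right) in each library, with the mean of 3 and the SD. UGT1A sums are highest with CoCl2 in HT-29 (172 CPM on average), and UGT2B sums in dCaco-2 are 74.3 CPM in control, 15.1 in CoCl2 and 22.5 in OD libraries on average.

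UGT8, the galactosyltransferase, was called in none of these 4 comparisons. It had 97.4, 95.7 and 102 CPM in control dCaco-2, 81.4, 85.1 and 91.6 with CoCl2 and 95.6, 106 and 94.9 with OD, so OD overlapped control and CoCl2 lay slightly under it. The log2 fold change was -0.19 ± 0.08 in CoCl2 libraries (FDR 0.0327) and 0.01 ± 0.08 in OD libraries (FDR 0.954). In HT-29, UGT8 had 92.2, 95.7 and 93.8 CPM in control, 52.7, 56.3 and 55.2 with CoCl2 and 76.8, 80.2 and 80.1 with OD. These 3 groups were separate, at -0.78 ± 0.05 under CoCl2 (FDR 7.07e-14) and -0.25 ± 0.05 under OD (FDR 3.96e-05), both inside the fold limit. Under scaling by library size alone, UGT8 was called with CoCl2 in HT-29, at -1.41. Of 8 genes that make, modify or break down galactosylceramide and related lipids, 1 was called with CoCl2 in dCaco-2 (23.4% of all genes), UGCG, which makes glucosylceramide (1.10 ± 0.09), and none with OD (11.7% of all genes). In HT-29, 1 of 7 was called with each agent, the sulfatide-degrading enzyme ARSA with CoCl2 (-1.75 ± 0.15) and the fatty acid hydroxylase FA2H with OD (1.57 ± 0.07), beside 41.3% and 17.1% of all genes.

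The agents were also compared directly. In dCaco-2, 2 of 7 members were called between CoCl2 and OD, while 11.7% of genes tested were called (5.21% higher and 6.44% lower): UGT1A6 was higher with CoCl2 (1.40 ± 0.27, FDR 0.000118) and UGT2B15 was lower (-1.08 ± 0.25, FDR 0.000981). Without CoCl2 replicate 1, UGT2B15 was no longer called (-0.86) and the count was 1, and without CoCl2 replicate 3, UGT1A1 was called as well (1.06, FDR 0.0418) and the count was 3. In HT-29, 1 of 8 members was called, UGT1A6 (1.30 ± 0.11, FDR 8.17e-11), while 29.9% of genes tested were called (10.8% higher and 19.2% lower). With scaling by library size alone UGT1A6 was no longer called there (0.80), and UGT2A3 (-1.57), UGT2B7 (-1.24) and UGT8 (-1.03) were called as lower with CoCl2 instead. Inside the fold limit but with an FDR under 0.05, UGT1A1 (0.97 ± 0.36 in dCaco-2 and 0.72 ± 0.10 in HT-29), UGT1A10 (0.63 ± 0.05 in HT-29) and UGT1A8 (0.39 ± 0.12 in HT-29) were higher with CoCl2 than with OD. UGT2B17 (-0.67 ± 0.20 in dCaco-2) and UGT8 (-0.20 ± 0.08 in dCaco-2 and -0.53 ± 0.05 in HT-29) were lower. For UGT2B7 the difference was 0.07 ± 0.22 in dCaco-2 (FDR 0.818) and -0.76 ± 0.55 in HT-29 (FDR 0.216), and for UGT2A3 it was -0.13 ± 0.08 and -1.09 ± 0.57.

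Whether the lines differed in response was tested by an interaction term, the log2 fold change in HT-29 minus that in dCaco-2. For CoCl2, 5 of the 9 members were called, 1 above 0 and 4 below, while 21.6% of 17921 genes tested were called (7.79% above and 13.8% below). For OD, 3 were called, all below 0, while 15.2% of genes tested were called (8.96% above and 6.24% below). The rise of UGT1A1 was smaller in HT-29 with both agents, by -2.02 ± 0.41 for CoCl2 (FDR 8.61e-05) and -1.68 ± 0.45 for OD (FDR 0.00233). The fall of UGT2A3 was larger in HT-29, by -2.78 ± 0.40 (FDR 3.58e-07) and -1.74 ± 0.29 (FDR 8.51e-06). For UGT1A6 the CoCl2 interaction was 0.20 ± 0.29 (FDR 0.608) and the OD interaction 0.39 ± 0.32 (FDR 0.348). The interaction of UGT1A8 with CoCl2 was also called but rests on 4 counts in control dCaco-2 and 0 with CoCl2, and it was no longer called without dCaco-2 control replicate 2 (FDR 0.0771), control replicate 3 (FDR 0.0784) or CoCl2 replicate 3 (FDR 0.0596).

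Of 13 further UGT genes in the table, 3 were tested in dCaco-2 and all 3 were called lower with CoCl2, while 14.2% of all genes were. These were the UGT2B genes UGT2B11 (-3.49 ± 0.44), UGT2B4 (-2.32 ± 0.20) and UGT2B10 (-1.64 ± 0.19). With OD, UGT2B10 (-2.23 ± 0.20) and UGT2B11 (-1.36 ± 0.34) were called and UGT2B4 was not (-0.87 ± 0.17), while 7.27% of all genes were called lower. UGT2B11 lies in part opposite an antisense gene over 18.5% of its exonic bases. In HT-29, 1 was tested, UGT1A7, an enzyme of the upper gut with 5, 8 and 12 counts in control libraries, which was called higher with CoCl2 (1.03 ± 0.38) and with OD (1.23 ± 0.34). The others had too few counts for a test.

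The promoters of 7 members were found in a RefSeq table that covers 250 bases before to 50 bases after each annotated start (GRCh38.p14), UGT1A10 and UGT2B17 being the others. Each was searched on both strands for 3 short motifs: ACGTG, the core that HIF binds, GCGTG, the core of the aryl hydrocarbon receptor (AHR), and TGACNNNGC, the core of the antioxidant response element. Over all 35116 promoters in the table, 21.4%, 36.5% and 13.3% held a match. Stretches are shown for the UGT1A members that were called in both lines with CoCl2, with matches on either strand in capitals (plus strand, chr2:233760170-233760229 for UGT1A1 and chr2:233692785-233692844 for a start of UGT1A6).
UGT1A1: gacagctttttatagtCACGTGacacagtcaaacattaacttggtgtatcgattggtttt
UGT1A6: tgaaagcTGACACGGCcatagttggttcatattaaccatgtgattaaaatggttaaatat
The UGT1A1 stretch held ACGTG on both strands, overlapping itself. The UGT1A6 stretch held the antioxidant core. The promoters of UGT2A3, UGT2B7 and UGT2B15 held none of the 3 motifs. UGT8, with 3 annotated starts, held ACGTG at 1 of them and GCGTG at 2. The promoter of UGT1A8 held both ACGTG and GCGTG, and the other start of UGT1A6 held GCGTG. These matches describe letters only.

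Genes that make the sugar donor were measured in the same libraries. UGDH, which oxidises UDP-glucose to UDP-glucuronic acid, had 154, 142 and 146 CPM in control dCaco-2, 428, 451 and 460 with CoCl2 and 280, 248 and 226 with OD. In HT-29 it had 51.8, 53.1 and 62.4 CPM in control, 318, 309 and 312 with CoCl2 and 127, 118 and 119 with OD. In both lines the 3 groups were separate, with OD between control and CoCl2. The log2 fold change of UGDH was 1.59 ± 0.08 in dCaco-2 and 2.48 ± 0.06 in HT-29 with CoCl2, and 0.77 ± 0.08 and 1.12 ± 0.06 with OD.

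PGM1 and UGP2, which lead from glucose 6-phosphate to UDP-glucose, rose in dCaco-2 with CoCl2 by 1.34 ± 0.08 and 1.20 ± 0.08. In HT-29, PGM1 rose by 1.93 ± 0.06 with CoCl2, as did UXS1, which uses UDP-glucuronic acid to make UDP-xylose, by 1.43 ± 0.06. Over the 8 genes of donor supply and deconjugation, 3 were called higher and none lower with CoCl2 in dCaco-2, and none was called with OD. In HT-29, 3 were called higher and 1 lower with CoCl2, the lower one being the donor transporter SLC35D1 (-1.04 ± 0.10), and 1 was called higher with OD. Over all genes, 23.4% and 11.7% were called in dCaco-2 with CoCl2 and OD, and 41.3% and 17.1% in HT-29, so the HT-29 counts were near the share over all genes. The median log2 fold change of the list was 0.33 and 0.27 in dCaco-2 with CoCl2 and OD, and 0.51 and 0.52 in HT-29, beside medians of all genes between -0.03 and 0.01.

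Export pumps for glucuronides moved in both directions. ABCC2, the apical pump for conjugates, had 416, 408 and 400 CPM in control dCaco-2 and 1110, 1170 and 1190 with CoCl2, and in HT-29 it had 1.68, 0.328 and 0.974 CPM in control and 58.0, 61.3 and 61.5 with CoCl2. The CoCl2 libraries were above control in both lines, by 1.50 ± 0.07 and 5.96 ± 0.15 on the log2 scale. ABCC3, the basolateral pump, fell with CoCl2 by 1.62 ± 0.07 in dCaco-2 and by 1.56 ± 0.05 in HT-29 on the log2 scale. ABCC1 rose with CoCl2 by 1.88 ± 0.10 in dCaco-2 and by 1.40 ± 0.05 in HT-29. With OD, ABCC2 was called higher in HT-29 (2.32 ± 0.22) but not in dCaco-2 (0.27 ± 0.07), and ABCC1 and ABCC3 were called in neither line. ABCC4 was called lower with both agents in both lines. Its log2 fold change was -1.16 ± 0.09 in dCaco-2 and -1.80 ± 0.06 in HT-29 with CoCl2, and -1.02 ± 0.08 and -1.05 ± 0.05 with OD. Of the 6 transporters on the list, 2 were called higher and 2 lower with CoCl2 in dCaco-2 and 1 each way with OD, and in HT-29 2 were called higher and 3 lower with CoCl2 and 1 higher and 2 lower with OD. These are 4 and 2 of 6 in dCaco-2, beside 23.4% and 11.7% of all genes, and 5 and 3 of 6 in HT-29, beside 41.3% and 17.1%. The list also holds SLCO2B1, an uptake carrier, which was among the lower ones in HT-29 (-3.20 ± 0.24 with CoCl2 and -2.02 ± 0.19 with OD).

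**Figure D4:**
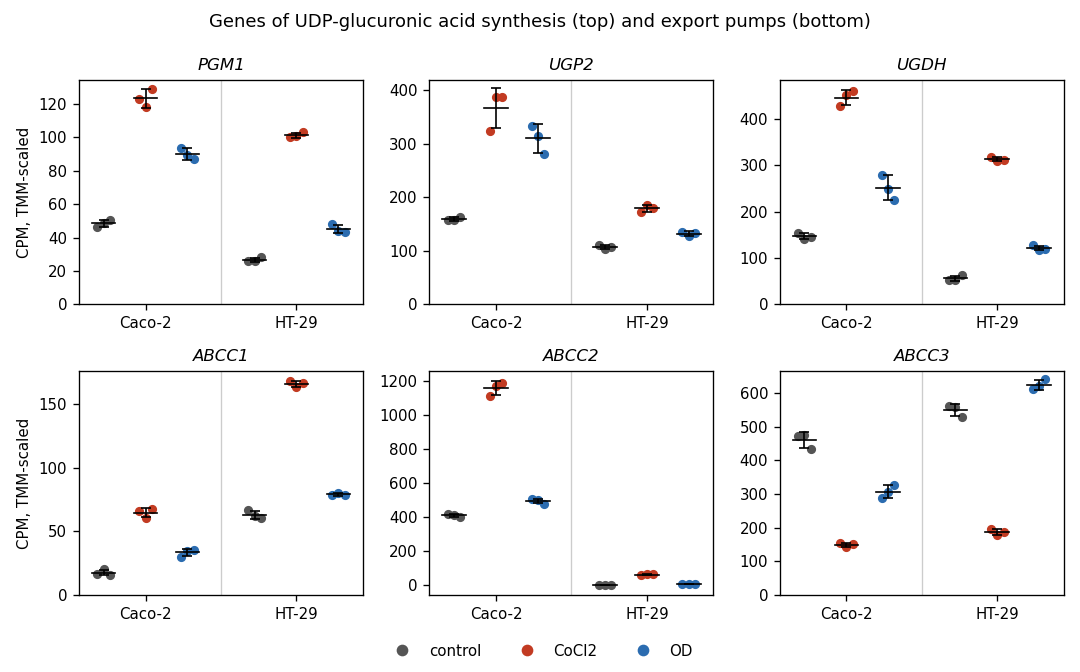
CPM in each library of the genes PGM1, UGP2 and UGDH of donor synthesis (top row) and the export pumps ABCC1, ABCC2 and ABCC3 (bottom row), with the mean of 3 and the SD. UGDH rises with CoCl2 from 148 to 446 CPM in dCaco-2 and from 55.8 to 313 CPM in HT-29, while ABCC3 falls from 460 to 149 and from 550 to 187 CPM.

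Among 15 transcription factors known to act on UGT genes, 2 were called with CoCl2 in dCaco-2, both lower: the pioneer factor FOXA1 (-1.60 ± 0.08) and the vitamin D receptor VDR (-1.13 ± 0.10). With OD none was called in dCaco-2, and FOXA1 was at -0.95 ± 0.07. In HT-29, 2 of 14 tested were called lower with CoCl2, FOXA1 (-1.50 ± 0.06) and the intestinal factor CDX2 (-1.46 ± 0.14), and with OD FOXA1 was called lower (-1.17 ± 0.06) and the pregnane X receptor NR1I2 higher (1.40 ± 0.23, at 14 to 51 counts per library). With CoCl2 these counts were under the share over all genes in both lines (23.4% in dCaco-2 and 41.3% in HT-29), as was that with OD in dCaco-2 (11.7%), and 2 of 14 with OD in HT-29 was near its 17.1%. Of 5 targets of AHR, 1 of 2 tested was called in dCaco-2 with CoCl2, TIPARP (1.59 ± 0.10), and none with OD, beside 23.4% and 11.7% of all genes. In HT-29, 3 of 4 tested were called with CoCl2 and 1 with OD, beside 41.3% and 17.1% of all genes. TIPARP was called higher (1.56 ± 0.06) with CoCl2, while CYP1B1 (-2.83 ± 0.14) and AHRR (-1.57 ± 0.25) were called lower. With OD CYP1A1 was called higher (4.10 ± 0.51), at 22, 22 and 41 counts against 4, 0 and 1.

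Of the 10 cytosolic sulfotransferases listed, enzymes that conjugate many of the same substrates with sulfate, 7 were tested in dCaco-2. Of these, 4 were called with CoCl2 and 5 with OD, all lower, with medians of -1.21 and -1.03, while 14.2% and 7.27% of all genes were called lower, with medians of -0.03 and -0.02. The steroid sulfotransferase SULT2A1 (-2.17 ± 0.14), the intestinal SULT1B1 (-1.65 ± 0.15) and the oestrogen sulfotransferase SULT1E1 (-1.36 ± 0.15) led with CoCl2. In HT-29, 2 of 4 tested were called with CoCl2, 1 each way, and 1 with OD. Over all genes, 41.3% and 17.1% were called, so these counts of few genes were near the share over all genes. SULT2B1, a cholesterol sulfotransferase, was higher with both agents in HT-29 (1.06 ± 0.07 and 1.52 ± 0.07). Among 15 glutathione, acetyl and methyl transferases tested in dCaco-2, 4 were called lower with CoCl2 and 3 with OD, and none higher, beside 23.4% and 11.7% of all genes called in either direction. GSTA2 (-1.08 ± 0.08 and -1.39 ± 0.08) and GSTA4 (-1.29 ± 0.11 and -1.37 ± 0.11) were called with both agents. In HT-29, 4 of 11 tested were called higher and 1 lower with CoCl2, with MGST1 (2.07 ± 0.05) the leading one, and none was called with OD, beside 41.3% and 17.1% of all genes.

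By the mean absolute difference of centred log2 CPM over the 9 dCaco-2 libraries, the genes most like UGT1A6, the UGT1A member with the most counts there, were LEAP2 (0.122), AKR1C2 (0.136) and DCUN1D3 (0.144), where the median over all genes tested was 0.749. Those most like UGT2A3 were IQGAP2 (0.030), PAQR8 (0.0478) and SLC9B2 (0.0596), where the median was 0.475.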

How the data were processed

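Messenger RNA of 18 libraries (2 lines, 3 treatments, 3 biological replicates per group) was analysed, and the 18 miRNA libraries of the series were not used here. According to the labels and methods, poly(A) libraries from a stranded kit were sequenced as single-end reads of 75 bases, trimmed with cutadapt 2.10, and aligned with STAR 2.7.5b to GRCh38.p13 with the GENCODE 34 annotation. The counting tool and its strand setting are not given in the sources used here. The authors deposited whole-number counts per gene for 60591 rows, and a second table of 14230 genes that per the file headers and labels holds RPKM and by its values is log2(RPKM + 1), scaled with edgeR (the processing notes name version 3.30.3). Values rebuilt from the counts differed from these deposited log2 values by a median of 0.0137 in Caco-2 and 0.0276 in HT-29. The gene lengths for this were derived from the deposited values themselves, so the general level of each gene was matched in advance. This table was used for per-length levels and as an alternative.

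Counts were fitted with edgeR 4.0.16 (R 4.3.3): TMM scaling, a filter on low counts by group (filterByExpr), and two-sided quasi-likelihood F tests with Benjamini-Hochberg adjustment over all genes tested. Each line was fitted over its 9 libraries, and the interactions and the comparison of control lines over all 18. Levels in CPM used the TMM factors of each line. SE is the absolute log2 fold change over the square root of F. Thresholds followed the study's methods, which used DESeq2, kept here as an alternative (1.42.0) with limma 3.58.1. The pipeline was tested on simulated counts. Pairs of replicates differed by more than counting noise (chi-square per degree of freedom 1.96 to 12.6), which does not by itself show separate cultures. Each was treated as a sample of its own, since they are described as biological replicates. In dCaco-2, pairs with replicate 1 stood apart, at 8.79 and 10.7 against 3.42 with CoCl2 and 9.51 and 12.6 against 3.43 with OD. Shared windows were counted in GENCODE 44 transcripts. The named genes were the 9 members, all further UGT genes, up to 3 called genes per list, comparison and at least 100 counts per library on average, and 3 genes by likeness to each of 2 members. A list gene outside this rule was named because its list had few called genes or to state what a list count holds, and any marker gene could be named. The members and lists were chosen with earlier results of these data known. Alternatives tried were library size or DESeq2 size factors for scaling, no filter, no fold limit, a replicate block, a joint fit, DESeq2, limma-trend on deposited values, and leaving out each library. Some genes and sequence motifs are not reported here.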

Additional observations from a re-analysis of the deposited data

Results flagged for a closer look

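For members tested in both lines, 9 responses differed between HT-29 and dCaco-2 in the interaction test of edgeR (log2 fold change in HT-29 minus that in dCaco-2, FDR under 0.05). This cut-off has no fold limit, and the share of all genes that pass it was not counted, so the 9 cannot be set against it. With the fold limit, which UGT8 did not pass, 21.6% of all genes were called for CoCl2 and 15.2% for OD. With CoCl2 these were UGT2B15 (-4.23 ± 1.41, FDR 0.0132), UGT2A3 (-2.78 ± 0.40), UGT1A1 (-2.02 ± 0.41), UGT2B7 (-1.64 ± 0.51, FDR 0.00768) and UGT8 (-0.70 ± 0.09, FDR 8.8e-08). With OD they were UGT2B15 (-2.76 ± 0.76, FDR 0.0037), UGT2A3 (-1.74 ± 0.29), UGT1A1 (-1.68 ± 0.45) and UGT8 (-0.27 ± 0.09, FDR 0.0132). UGT1A1 and the UGT2 members had their smaller control counts in opposite lines, 1 to 5 per library for UGT1A1 in dCaco-2 and 20 to 87 for UGT2A3, UGT2B7 and UGT2B15 in HT-29. The values of UGT2B15 rest on 0 counts with CoCl2 and 2 counts with OD over 3 HT-29 libraries, so their size depends on the prior count of the fit and is no bound.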

How the results depend on the processing

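Of 1434 values of single members under the alternatives, 1373 kept their direction and side of the threshold, 15 lost the call, 30 gained it and 16 changed sign. The alternative without a fold limit keeps the estimates and can only add calls. Some fits that leave out a library drop one outside the comparison and change little by design. The tally is therefore a description only. For UGT8 with OD in dCaco-2 the changed signs were -0.15 with library size alone, -0.03 with limma-trend at both pseudocounts, and -0.04 to 0.04 over fits that leave out a library (-0.04 without OD replicate 2, 0.00 and -0.01 without control replicate 1 or 2). For UGT2B7 between CoCl2 and OD in dCaco-2 they were -0.10 with library size alone, -0.29 to 0.22 over fits that leave out a library (-0.29 and -0.04 without CoCl2 replicate 3 or OD replicate 2), and -0.01 and -0.03 with limma-trend at pseudocounts of 1 and 0.1. The others were UGT1A8 between CoCl2 and OD in HT-29 with library size alone (-0.11, against 0.39 ± 0.12 as reported), the CoCl2 interaction of UGT1A6 without dCaco-2 control replicate 1 (-0.06, range to 0.31) and of UGT2B17 without HT-29 CoCl2 replicate 2 (-0.79, range to 3.07), and UGT8 between control lines with DESeq2 size factors or the DESeq2 test (0.05 each).

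The number of called members moved with limma-trend on the deposited values to 3 with CoCl2 in dCaco-2, 2 with CoCl2 in HT-29 (3 at a pseudocount of 0.1), 0 with OD in HT-29 at both pseudocounts, and 0 between the agents in each line (2 and 1 at a pseudocount of 0.1). Of the members, 6 were tested there in dCaco-2 and 5 in HT-29, the 4 UGT1A genes and UGT8, so the 3 UGT2 members called with OD in HT-29 were not among them, and the pseudocount of 1 shrinks changes of low genes. Without the fold limit the count was 8 with OD in HT-29 and 5 between the agents in each line, and with library size alone it was 3 between the agents in HT-29, UGT2A3, UGT2B7 and UGT8 in place of UGT1A6. Leaving out single libraries gave 1 to 3 between the agents in dCaco-2. Same-numbered replicates did not deviate together (correlations of -0.055 to 0.068 in Caco-2 and -0.037 to 0.025 in HT-29), so the numbers were not taken as pairs, and with a replicate block the counts of called members stayed at 5, 4 and 2 in dCaco-2 (CoCl2, OD, CoCl2 against OD), 7, 3 and 1 in HT-29, 5 and 3 for the interactions and 8 between control lines. Low counts limit UGT1A1 in dCaco-2 and the UGT2 members in HT-29. Scaling by library size alone shifted the median of all genes by -0.32 and -0.15 in dCaco-2 (CoCl2, OD) and by -0.63 and -0.14 in HT-29. Genes called higher and lower then went from 1464 and 2283 to 870 and 3546 with CoCl2 in dCaco-2, from 711 and 1165 to 500 and 1644 with OD, from 2749 and 3775 to 1295 and 6250 with CoCl2 in HT-29 and from 1502 and 1197 to 1225 and 1596 with OD. UGT2A3 passed the fold limit under that scaling with both agents in dCaco-2 (-1.30 with CoCl2).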
